A study of Mus musculus with 2 samples.

Results

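Endothelial cells take leukocytes out of the blood with a small set of adhesion molecules, and the transcripts of 9 of these genes were followed here. They are the selectins *Sele* and *Selp*, the integrin ligands *Icam1*, *Icam2*, *Vcam1* and *Madcam1*, and the junctional or surface molecules *Pecam1*, *Alcam* and *Cd99l2*. The genes were chosen by name, and every probe set that the platform annotation gives to 1 of these symbols was taken. This gave 20 probe sets of the 45101 on the array, and 9 of the 18194 genes with a probe set of their own. A probe set is the group of short array probes that reports 1 transcript.

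The study sorted endothelial cells from the brain vessels of normal C57BL/6 mice with antibodies to CD31, the protein of *Pecam1*, and to CD133, the protein of Prom1. Total RNA of the CD31+CD133- cells and of the CD31+CD133+ cells was amplified, labeled with biotin and hybridized to an Affymetrix Mouse Genome array each. The comparison asks how the small Prom1+ part of the brain endothelium differs from the rest. The sources used here give neither the age and number of the mice nor whether animals were pooled. Each population has only 1 array, so the folds below have no replicate behind them and carry no p-value.

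The transcript of the sorted protein did not follow the labels. *Prom1* was at 196 times the array median on the array labelled Prom1- and at 159 times on that labelled Prom1+, which is a log2 ratio of -0.30 (1.23-fold lower on the latter). That ratio was 0.73 with the hybridization controls set equal and between -0.84 and -0.02 under the other scalings described below. The median log2 ratio of all genes was 1.64 with those controls set equal and between 0.04 and 0.66 otherwise. Probe sets at a mean log2 signal of 7 to 8, where *Prom1* lies, had a median log2 ratio of -0.23 as deposited. *Prom1* was thus close to equally bright probe sets, and its signals do not show which array holds the Prom1+ cells. The arrays are therefore named by their labels throughout, and every direction below rests on them: with the labels exchanged, higher and lower would change places in every count and share. The study also measured selected genes of these cells by quantitative PCR, which is not analysed here. Endothelial transcripts were found on both arrays. All 24 genes of a pan-endothelial list were measured, *Plvap* on the Prom1- array only, with a median log2 ratio of 0.02. *Cldn5*, the tight junction claudin of the blood-brain barrier, was at 326 times the array median in Prom1- and 219 times in Prom1+ cells. Some transcripts of other cells were bright too, such as *Ptgds* of the fibroblast and meningeal list (305 and 40.3 times) and *Mbp* of the oligodendrocyte list (271 and 119 times). These values do not show how pure the sorted cells were. *Pecam1* and *Prom1* were used for the sort, so their levels serve as checks and not as findings.

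The capture of a leukocyte runs through steps that each use other members of this group. E-selectin (*Sele*) and P-selectin (*Selp*) bind carbohydrate ligands on leukocytes and make them roll. *Selp* protein is stored in granules of endothelium and platelets, while *Sele* is made anew when endothelium is activated. ICAM1 and ICAM2 hold the cell by its LFA-1 integrin, VCAM1 by its VLA-4 integrin, and MADCAM1, best known from vessels of the gut, by an integrin of the alpha4 and beta7 chains. CD31, the CD99-like molecule of *Cd99l2* and ALCAM, a ligand of CD6 on T cells, then serve the passage through the vessel wall. In a healthy brain few leukocytes take this path.

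Signals are given as multiples of the median of the same array. Those under a floor of 1.67 times the median were treated as not measured, a fold of at least 2 between floored signals was counted as a difference, and where 1 of both signals fell short of the floor the fold is a bound ("at least"). Where a pair of signals is given, the Prom1- array comes first and the Prom1+ array next. Of the 20 probe sets, 12 were above the floor on both arrays, 1 on the Prom1+ array only and 7 on neither. The 13 that could be compared were at least 2-fold higher in the Prom1+ array for 8, at least 2-fold lower for 0 and under 2-fold for 5. Over all 19003 probe sets that could be compared the shares were 28.0% higher and 4.13% lower. Taking the brightest probe set for each gene, 6 of the 9 genes could be compared. *Icam1*, *Vcam1* and *Cd99l2* were at least 2-fold higher in the Prom1+ array, none was 2-fold lower, and *Icam2*, *Pecam1* and *Alcam* were under 2-fold. Of all 10793 genes compared in this way, 28.2% were at least 2-fold higher and 4.77% at least 2-fold lower, so that 3 of 6 is a small count against a broad shift. The median log2 ratio was 0.78 for the 6 genes and 0.66 for all genes.

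**Figure D1:**
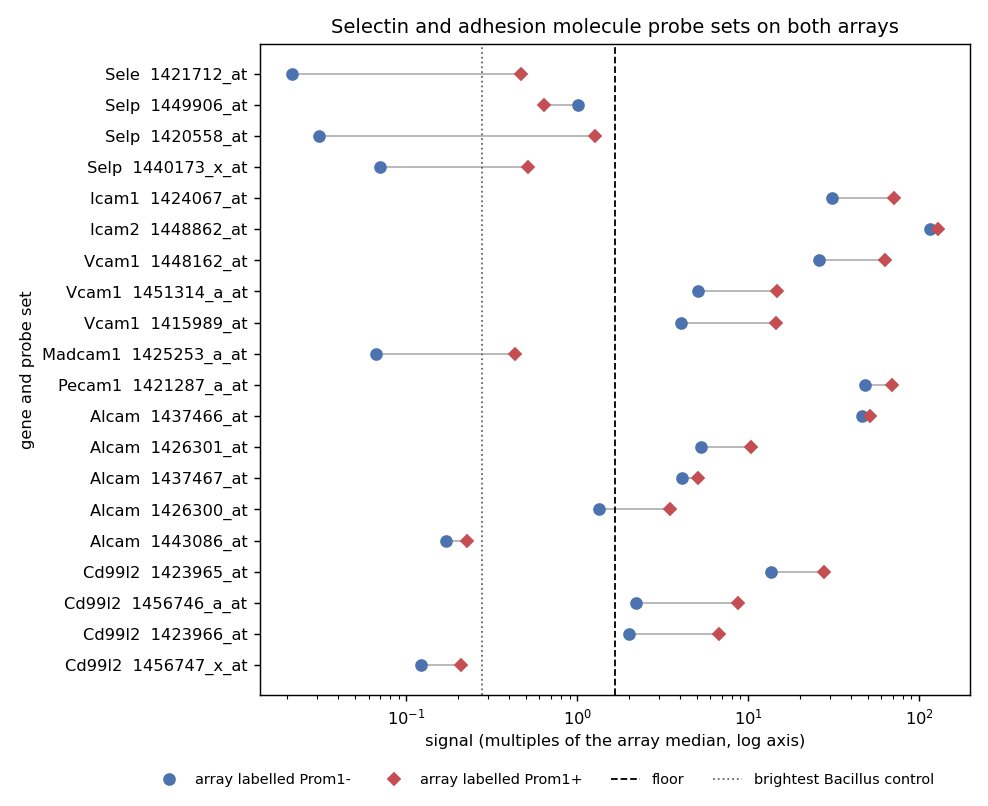
Signal of each of the 20 probe sets (rows, with their gene) in multiples of the array median on a log axis, with a circle for the array labelled Prom1- and a diamond for the array labelled Prom1+, 1 array each. The dashed line is the floor of 1.67 and the dotted line the brightest Bacillus control, at 0.276; every probe set of *Sele*, *Selp* and *Madcam1* lies left of the floor on both arrays, and *Icam1* and all probe sets of *Vcam1* lie right of it with the Prom1+ array higher.

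Part of this shift depended on how bright a probe set was. Both signals were above the floor for 17488 probe sets, of which the median was 1.58-fold higher in the Prom1+ array, with a median log2 ratio of 0.87 at a mean log2 signal of 3 to 4, of 0.27 at 6 to 7 and of -0.64 at 8 to 9. Each member is therefore given beside the median fold of the 1000 probe sets nearest to it in mean signal, called its signal neighbors below. The measure of technical error used here is how far probe sets of 1 gene disagree. Their log2 ratios had an SD of 0.54 over 3930 genes. Probe sets of 1 gene read the same RNA on the same arrays. Errors of sorting, amplification or labeling that they share are therefore not part of this SD, and neither is how animals differ.

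By the floor used here, the rolling receptors were not measured in either population. *Sele* (probe set 1421712_at) had signals of 0.0215 and 0.465 times the median. The first *Selp* probe set, 1449906_at, had 1.01 and 0.634 times, the second, 1420558_at, had 0.0308 and 1.26 times, and the last, 1440173_x_at, had 0.0705 and 0.513 times. All 4 selectin probe sets were thus under the floor on both arrays, and those of *Selp* ran in opposite directions, with 1 lower and the other 2 higher in the Prom1+ array. *Madcam1* (1425253_a_at) was also under the floor, at 0.0667 and 0.432 times the median. Some of these signals did lie above the controls. The 27 Bacillus probe sets, which match no mouse transcript, reached 0.276 times the median on the first array and 0.234 times on the next, and all 5 selectin and *Madcam1* probe sets were above that level in the Prom1+ array, against 1, the first of *Selp*, in the Prom1- array. Both levels lie under the array median, so most probe sets of either array exceed them too. The count therefore does not show that these transcripts were detected.

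Without the floor, the log2 ratio would read 4.44 for *Sele*, 2.69 for *Madcam1* and -0.67, 5.36 and 2.86 for the *Selp* probe sets in the order above. Wide ratios in both directions were common among signals that low. Both signals were under the floor for 23135 probe sets. With no floor set, 25.0% of these were at least 2-fold higher and 31.9% at least 2-fold lower in Prom1+ cells, and their log2 ratios ran from -4.01 at the 5th to 3.26 at the 95th percentile. The Bacillus controls, which share no transcript with the mouse, ran from -4.79 to 3.42, with 13 of 27 at least 2-fold higher and 6 at least 2-fold lower. The ratios of *Madcam1* and of the first and last *Selp* probe set lay inside both ranges, and those of *Sele* and of 1420558_at lay above both. By the rule no fold is given for *Sele*, *Selp* or *Madcam1*, and an absence of these transcripts is not claimed either. Platelets carry *Selp* too. In RNA taken from many cells at once, fewer cells of a type and less RNA per cell cannot be told apart. Of 7 platelet genes with a probe set, *Ppbp*, *Gp6*, *Treml1* and *Clec1b* were under the floor on both arrays, *Pf4*, the platelet chemokine, was lower by at least 2.64-fold in Prom1+ cells (4.42 and 1.37 times the median), and the summed signal of the 7 was 10.98 and 5.37 times the median. Their part in the *Selp* signals was not tested.

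Promoters are shown for *Icam1*, *Sele* and *Madcam1*, which cytokines are known to induce in endothelium, because the first was bright on both arrays and the others were under the floor. RefSeq windows of the GRCm38.p6 build, from 250 bases before to 50 after the annotated start, were found for 6 of the 9 genes, and not for *Icam2*, *Vcam1* and *Pecam1*. Capitals mark matches to motifs searched on both strands, with positions counted from the start. *Icam1*, on the plus strand at chr9:21015690-21015989, holds GGAAATTCC, a match to the shorter NF-kB form GGAAANTCC, at -153 and TATAAA at 14. *Sele*, on the plus strand at chr1:164047984-164048283, holds TGACATCA, a match to the ATF/CREB-like motif TGACNTCA, at -176 and TATAAA at -49. *Madcam1*, on the plus strand at chr10:79664309-79664608, holds the NF-kB consensus on the minus strand at -83 and at -70, the latter overlapping a match to the shorter form.
*Icam1*: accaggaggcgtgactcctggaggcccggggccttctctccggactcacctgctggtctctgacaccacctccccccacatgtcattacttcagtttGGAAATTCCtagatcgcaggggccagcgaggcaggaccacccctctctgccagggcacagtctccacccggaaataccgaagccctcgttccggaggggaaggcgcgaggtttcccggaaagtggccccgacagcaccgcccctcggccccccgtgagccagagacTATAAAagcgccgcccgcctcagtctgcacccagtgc
*Sele*: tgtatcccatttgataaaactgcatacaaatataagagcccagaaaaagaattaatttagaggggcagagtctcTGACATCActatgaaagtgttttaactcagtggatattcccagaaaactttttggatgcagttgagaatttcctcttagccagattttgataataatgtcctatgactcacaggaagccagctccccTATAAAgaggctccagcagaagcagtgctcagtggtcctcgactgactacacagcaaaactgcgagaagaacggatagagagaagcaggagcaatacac
*Madcam1*: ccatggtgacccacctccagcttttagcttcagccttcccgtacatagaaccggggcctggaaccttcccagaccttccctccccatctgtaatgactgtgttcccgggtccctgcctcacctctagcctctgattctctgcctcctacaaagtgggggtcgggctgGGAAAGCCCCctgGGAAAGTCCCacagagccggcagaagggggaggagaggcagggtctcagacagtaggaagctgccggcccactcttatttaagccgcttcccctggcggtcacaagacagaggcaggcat

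The same search gave no match in the windows of *Selp*, *Alcam* and *Cd99l2*. Among 32851 windows of that length, 8.46% held the NF-kB consensus, 1.25% the shorter form, 13.6% TATAAA and 8.83% the ATF/CREB-like motif. The motifs were picked after the sequences had been seen. A match describes letters in a window and not a bound site. Only the patterns named were searched, so a window without a match, such as that of *Sele* for NF-kB, may still hold a site. The window of *Icam1* was 64.7% G or C, that of *Madcam1* 60.0% and that of *Sele* 41.7%, beside a median of 52.7% over all windows.

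*Icam1* and *Vcam1*, the inducible ligands of the firm adhesion step, both had higher signals in Prom1+ cells. *Icam1*, with its 1 probe set 1424067_at, was at 31.0 and 71.6 times the median, which is 2.31-fold higher (log2 ratio 1.21). Its signal neighbors were 1.51-fold higher at the median, and 9.40% of them were at least 2-fold higher, so that *Icam1* stood 1.53-fold over them. This excess, 0.61 on the log2 scale, is close to the SD of 0.54 given above.

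*Vcam1* was higher by each of its 3 probe sets. The brightest, 1448162_at, was at 25.9 and 63.3 times the median, or 2.45-fold. The dimmer pair gave larger folds, with 5.10 and 14.8 times (2.91-fold) for 1451314_a_at and 4.05 and 14.6 times (3.62-fold) for 1415989_at. Log2 ratios of these 3 had an SD of 0.28 and ran from 1.29 to 1.86, beside the SD of 0.54 over all genes. Against their own signal neighbors the excess was 1.54-fold, 1.60-fold and 2.07-fold, in the same order. The larger folds of the dimmer probe sets thus stood among neighbors whose folds were larger as well, at medians of 1.82 and 1.75 beside 1.59 for the brightest.

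*Icam2*, the constitutive partner of *Icam1* on resting endothelium, differed from both. Its probe set 1448862_at was at 116 and 129 times the median, a fold of 1.11 where its signal neighbors had 1.04. At this brightness the whole array was shifted little, and only 0.100% of the neighbors were at least 2-fold higher. Genes with nearly the same pair of signals were looked up for these members. The nearest to *Icam1* were *Psmb5*, a subunit of the proteasome, at 31.5 and 72.7 times the median, and *Zfp622* at 30.0 and 71.2 times. *C2cd2* (26.1 and 63.4 times) and *Cacybp* (25.8 and 64.1 times) were nearest to *Vcam1*, and *Ppp2r1a*, a scaffold of protein phosphatase 2A, and *Klf2*, a flow-responsive transcription factor of endothelium, to *Icam2*, at 117 and 130 times and at 114 and 126 times. Likeness here is a distance over 2 signals, from 0.01 to 0.05 on the log2 scale, and it describes these arrays only.

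**Figure D2:**
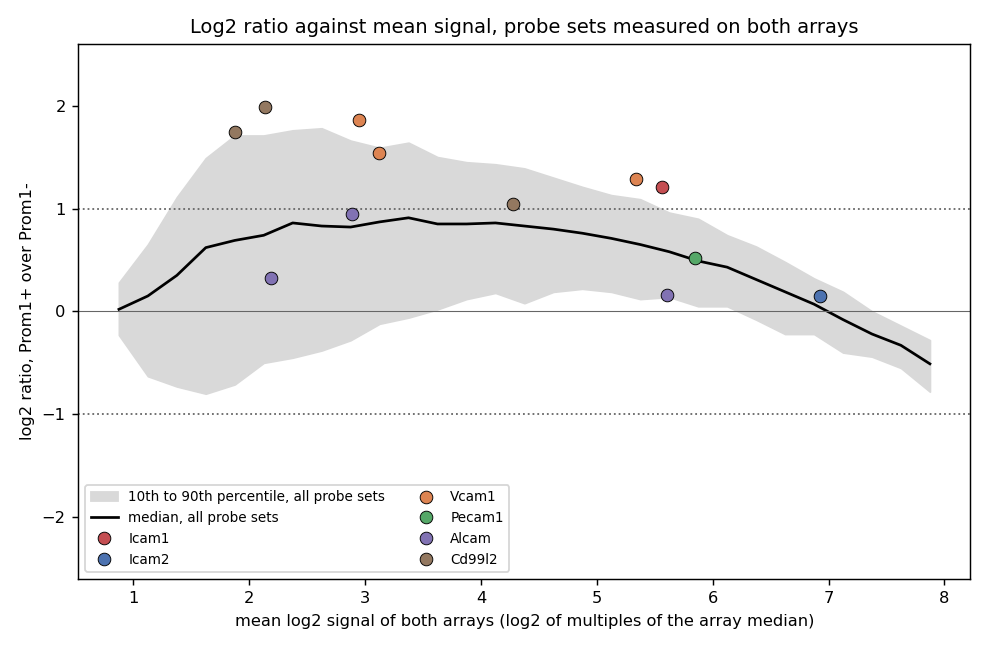
Log2 ratio of the Prom1+ over the Prom1- array (vertical axis) against the mean log2 signal of both arrays in multiples of the array median (horizontal axis) for the 12 member probe sets above the floor on both. The black line is the median and the gray band the 10th to 90th percentile of all 17488 such probe sets, and dotted lines mark 2-fold; *Icam1*, the dimmer *Cd99l2* probe sets and 2 of the 3 *Vcam1* probe sets lie above the band, the other *Vcam1* probe set (1451314_a_at) lies just inside it, and *Pecam1* and *Icam2* lie near the median line.

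The genes of passage through the wall did not move as a group. *Pecam1* (1421287_a_at) had 48.2 and 69.2 times the median, 1.44-fold higher in the Prom1+ array, where its signal neighbors were 1.42-fold higher. Both populations were sorted on its protein, and its transcript stood 1.01-fold over the neighbors. Measured against *Pecam1*, the log2 ratio of *Vcam1* was larger by 0.77 and that of *Icam1* by 0.69, and after loess, which removes the dependence on signal, by 0.62 and 0.59.

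*Cd99l2* was higher by its 3 measured probe sets, but by unequal amounts. The brightest, 1423965_at, had 13.6 and 27.9 times the median, which is 2.06-fold and only 1.14-fold over its neighbors. Of the dimmer ones, 1456746_a_at had 2.20 and 8.75 times (3.98-fold) and 1423966_at had 2.01 and 6.72 times (3.35-fold), both with a Prom1- signal just above the floor. The last, 1456747_x_at, was under the floor at 0.122 and 0.208 times. The brightest probe set alone would place *Cd99l2* within the shift of its neighbors, while the dimmer ones stood 2.37-fold and 2.06-fold over theirs. Log2 ratios of the 3 had an SD of 0.49.

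*Alcam*, which has 5 probe sets, was the member that lagged behind the shift by its brightest. That probe set, 1437466_at, had 46.2 and 51.7 times the median, a log2 ratio of 0.16 where its neighbors had 0.59 at the median. The next, 1426301_at, had 5.32 and 10.3 times (1.94-fold), and 1437467_at had 4.08 and 5.07 times (1.24-fold). By 1426300_at *Alcam* was at least 2.07-fold higher, from a Prom1- signal of 1.34 times the median, under the floor, to 3.46 times. The last, 1443086_at, was under the floor at 0.171 and 0.225 times. Divided by the median fold of their neighbors, the folds of the first 3 were 0.745, 1.10 and 0.721, so that the probe sets did not settle on 1 side of the shift. No *Alcam* probe set was lower in the Prom1+ array in the values as deposited.

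How far these folds hold depends on the scale on which the arrays are set equal. The 6 scalings were the deposited one, equal trimmed means, the pan-endothelial genes set equal, the hybridization controls (bacterial and phage transcripts added in fixed amounts) set equal, quantile normalization and loess. Over these the log2 ratio of *Vcam1* ran from 0.64 to 2.32 and that of *Icam1* from 0.61 to 2.23, with both at least 2-fold higher under 3 of 6 (as deposited, and with the pan-endothelial genes or the hybridization controls set equal). The median of all genes moved with the scaling, from 0.04 with loess and 0.09 with quantile normalization to 0.66 as deposited and 1.64 with the hybridization controls set equal. Of these scalings, the first 4 add 1 constant to all log2 ratios, so the difference from that median stays nearly the same under them by construction, and only quantile normalization and loess can move it. *Vcam1* was above the median by 0.63 as deposited, 0.61 with quantile normalization and 0.60 with loess. *Icam1* was above it by 0.55, 0.59 and 0.57 in the same order, and *Cd99l2* by 0.38, 0.18 and 0.16. The log2 ratio of *Alcam* less the median was -0.49, -0.48 and -0.45, and that of *Pecam1* was -0.13, -0.04 and -0.02. *Icam2* changed side, at -0.50, 0.06 and 0.11. The plain log2 ratio of *Icam2* turned negative with equal trimmed means (-0.39), that of *Pecam1* likewise (-0.02), and that of *Alcam* there and under both other normalizations (-0.42 at the lowest).

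**Figure D3:**
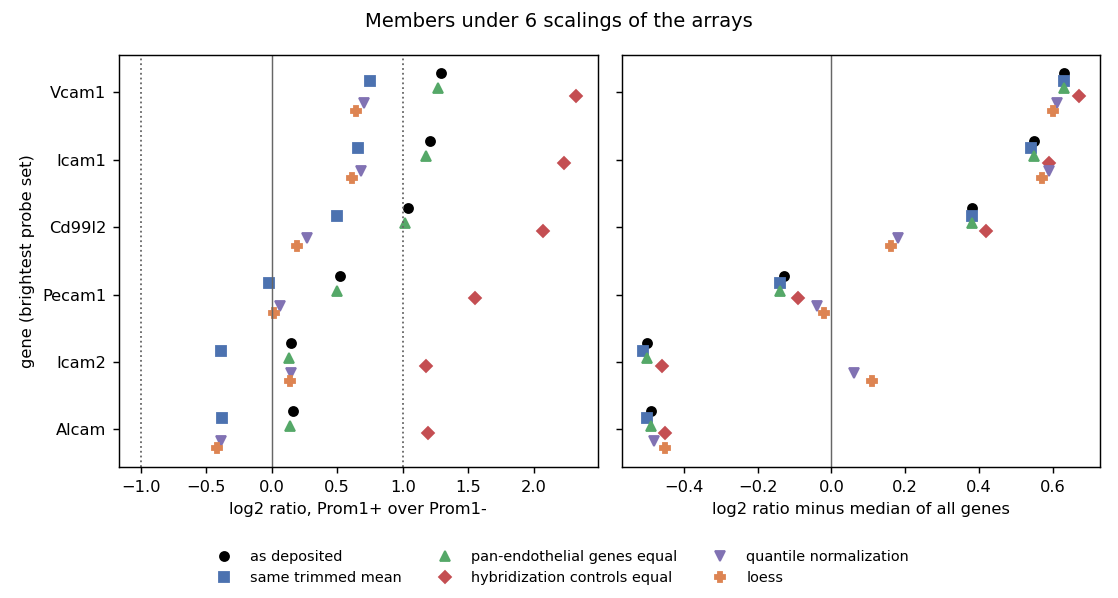
Log2 ratio of the Prom1+ over the Prom1- array for the brightest probe set of the 6 measured members under 6 scalings (marker shapes), as it stands (left) and after the median of all genes under that scaling is taken off (right). Dotted lines mark 2-fold; on the right the first 4 scalings nearly coincide by construction, and with quantile normalization and loess *Vcam1* and *Icam1* stay above the median, *Alcam* stays below it and *Icam2* changes side.

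A wider list of adhesion molecules, mostly of the immunoglobulin family and not all of them endothelial, showed no common direction. Of 17 measured, 4 were at least 2-fold higher in Prom1+ cells and 2 at least 2-fold lower, or 23.5% and 11.8% beside 28.2% and 4.77% of all genes. Their median log2 ratio was 0.47 beside 0.66 for all genes. *F11r*, the junctional molecule JAM-A, was 2.09-fold higher (38.4 and 80.2 times the median) and *Nectin2*, an adherens junction nectin, 2.97-fold (3.02 and 8.97 times), as were *Bcam*, a laminin receptor, by 2.08-fold and *L1cam* by 2.05-fold. *Mcam*, which is CD146 of endothelium and pericytes, was 3.75-fold lower (57.4 and 15.3 times). *Ncam1*, a neural cell adhesion molecule, was at 16.0 times the median in Prom1- cells and at 0.864 times, under the floor, in Prom1+ cells (lower by at least 9.57-fold). The endothelial junction molecule *Esam* was level at 155 and 160 times. These counts moved with the scaling, from 0 higher and 4 lower with loess (5.47% and 7.91% of all genes) to 11 higher and 1 lower with the hybridization controls set equal (79.6% and 1.69% of all genes).

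The measured selectin ligands and their carriers, not all of them endothelial, differed by less than 2-fold between the arrays as deposited. Of 9 selectin ligands and carriers with a probe set 6 were measured, with 0 at least 2-fold higher and 0 lower. With the hybridization controls set equal 3 were higher, and with equal trimmed means, quantile normalization or loess 1 was lower. The sialomucins *Podxl* (185 and 159 times the median), *Cd34* (145 and 128 times) and *Emcn* (122 and 144 times), which in lymph node vessels can carry L-selectin ligands, were bright on both arrays. *Selplg*, the leukocyte ligand of P-selectin, had 14.0 and 7.83 times. Among 12 enzymes that build selectin ligand glycans 7 were measured, of which 2 (28.6%, beside 28.2% of all genes) were at least 2-fold higher. The sialyltransferase *St3gal3* was 4.13-fold higher in the Prom1+ array (3.36 and 13.9 times) and the tyrosine sulfotransferase *Tpst1* 2.31-fold higher (8.71 and 20.1 times). Over the scalings from 1 to 7 of these enzymes were 2-fold higher and 0 lower. The shares of all genes ran from 5.47% to 79.6% higher and from 1.69% to 8.04% lower. *Fut4* and *Fut7*, which add the fucose of these glycans, and *Chst4*, a sulfotransferase of L-selectin ligands, were under the floor on both arrays.

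The leukocyte receptors for these molecules were mostly under the floor. *Itgal*, *Itgam* and *Itgb2*, the chains of LFA-1 and Mac-1 that bind ICAM1, and *Itgb7*, which pairs in the MADCAM1 receptor, were under the floor on both arrays, and of 11 such genes with a probe set 7 were. Of the other 4, *Itga4*, *Itgb1* and *Itgav* (95.2 and 55.2 times the median) differed by less than 2-fold, and *Itgb3*, under the floor in Prom1- cells at 1.49 times, was at least 1.49-fold higher. Over the scalings from 0 to 2 of this list were 2-fold higher and from 0 to 2 lower. The shares of all genes ran from 5.47% to 79.6% higher and from 1.69% to 8.04% lower. *Itga4*, the alpha chain of VLA-4, had 9.84 and 6.03 times the median and its partner *Itgb1* 24.6 and 35.1 times. Of 11 measured genes that dock or anchor the ligands inside the endothelial cell, 2 (18.2%) were at least 2-fold higher in the Prom1+ array, a smaller share than the 28.2% of all genes. They were *Ezr*, the ezrin that links ICAM1 and VCAM1 to actin, at 9.26 and 26.6 times (2.88-fold) and the GTPase *Rhog* at 5.84 and 18.0 times (3.08-fold). The ezrin relatives *Msn* (175 and 131 times) and *Rdx* (139 and 139 times) were not, and the actin crosslinker *Flna* was 1.99-fold lower at 105 and 52.6 times. Over the scalings from 0 to 8 of this list were 2-fold higher and from 0 to 1 lower, beside the shares of all genes given above for the receptors.

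**Figure D4:**
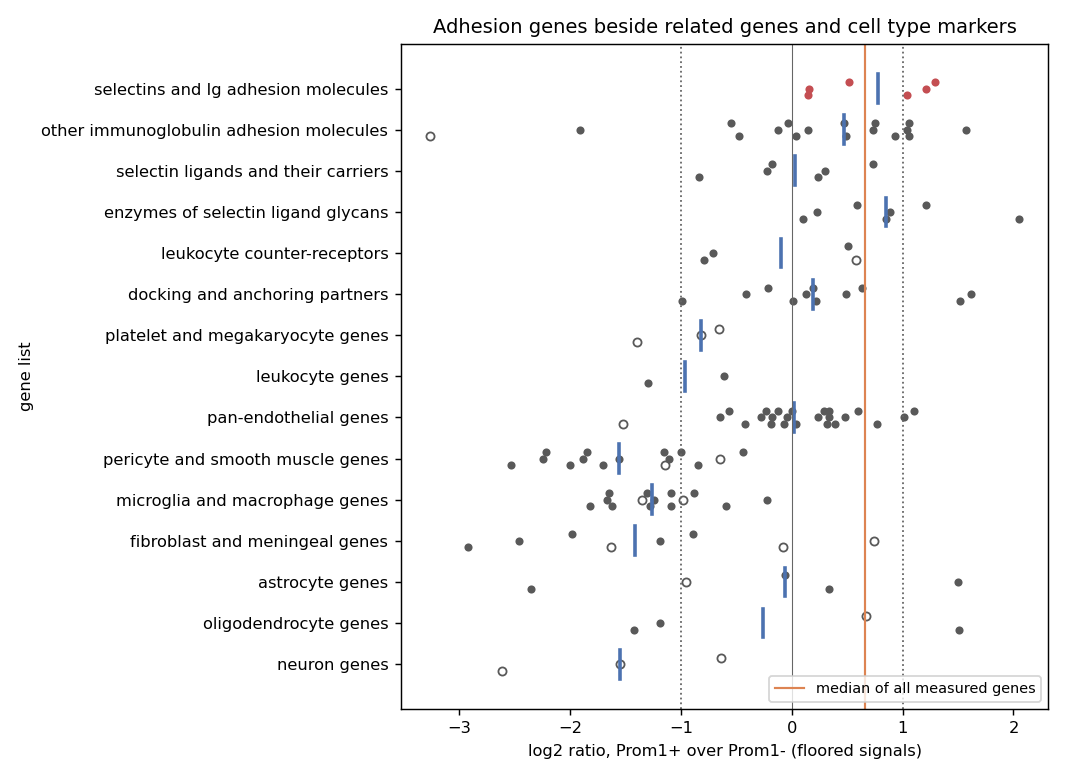
Log2 ratio of the Prom1+ over the Prom1- array, on floored signals, for every measured gene of each list (rows), with a bar at the list's median. Filled points were above the floor on both arrays and open points are bounds, dotted lines mark 2-fold and the orange line the median of all genes at 0.66; the 6 members (red) run from 0.15 to 1.29, and the pericyte and microglia genes lie left of 0.

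Transcripts of other cells of the vessel also differed between the arrays. The shares of all genes, for the counts in this paragraph, were 28.2% at least 2-fold higher and 4.77% at least 2-fold lower. Of 15 pericyte and smooth muscle genes measured, 12 (80.0%) were at least 2-fold lower in Prom1+ cells, and their summed signal was 1383 and 497 times the median. Of 14 microglia and macrophage genes measured, 10 (71.4%) were at least 2-fold lower, with sums of 346 and 148 times. *Acta2*, the actin of smooth muscle, had 295 and 81.6 times, and *Csf1r*, the microglial growth factor receptor, 71.5 and 33.6 times. The sizes of these counts depended on the scaling, from 3 to 13 for pericytes and from 0 to 13 for microglia, while no gene of either list was 2-fold higher under any of the 6. Over these scalings the shares of all genes ran from 1.69% to 8.04% lower and from 5.47% to 79.6% higher. Of 8 fibroblast and meningeal genes measured, 5 were at least 2-fold lower. Astrocyte genes were split, at 1 higher and 1 lower of 5, as were oligodendrocyte genes, at 1 higher and 2 lower of 4, and 2 of 3 measured neuron genes were lower. Of 10 leukocyte genes with a probe set only *Lyz2* and *Coro1a* were measured, and *Ptprc*, *Cd3e*, *S100a8* and *S100a9* were under the floor on both arrays. The members that were higher in the Prom1+ array, *Icam1*, *Vcam1* and *Cd99l2*, thus ran against the direction of the mural and microglial genes, and the part of these cells in the member signals was not tested.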

How the data were processed

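Endothelial cells were sorted by the authors, RNA was extracted with RNeasy, amplified and labeled with the NuGEN Ovation system, and 1 array was scanned per population. Signals from the GeneChip Operating Software were scaled by the authors to a target of 500 and normalized in GeneSpring, and the submitters' processing notes name MAS5. The deposited values are on a log2 scale, each signal divided by its array's median, with -6.64 (0.0100 times the median) as the lowest. Signals before that step and detection calls were not used here.

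Values were taken back to multiples of the median. The floor is 100 on the target scale, carried over as 1.67 times the median through the 2% trimmed means of both arrays. Names came from the platform annotation. It holds 35890 of the 45101 probe sets, and the 34958 with 1 symbol were used. Identifiers of 34754 were found in the RefSeq gene table of GRCm38.p6, used for names. The brightest probe set stood for a gene. The genes named are all members, *Prom1*, and 2 nearest genes for each of *Icam1*, *Vcam1* and *Icam2*. For each other list a rule gave its 3 brightest genes and its 2 largest ratios in either direction, above the floor on both arrays. Only a selection of the genes that this rule gives is printed. Any other gene was named after its values were seen. Members and lists were chosen with earlier results of these data known. The alternatives were floors of 50 and 200 or none, thresholds of 1.5-fold and 3-fold, equal trimmed means, pan-endothelial genes or hybridization controls set equal, quantile normalization, loess with a span of 0.2, the mean over probe sets, and no _x_at or _s_at probe sets. The number of arrays, 1 per population, limits the precision. The counting rules were tested on simulated data in which only chosen genes well above the floor were shifted. Those data lacked the broad, signal-dependent shift of these arrays, so the test does not cover it. The software was matplotlib 3.10.9, statsmodels 0.14.6, scipy 1.17.1, pandas 2.3.3, numpy 2.4.6 and Python 3.11.15.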

Additional observations from a re-analysis of the deposited data

How the results depend on the processing

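Of the 6 measured genes, 3 were at least 2-fold higher in the Prom1+ array, and this count kept its value with floors of 50 or 200, a threshold of 1.5-fold, the pan-endothelial genes set equal, the mean over probe sets, and no _x_at or _s_at probe sets. Some of these could not change the calls of the 3 genes. Their signals lay far above either floor, and their brightest probe sets have neither suffix. Setting the pan-endothelial genes equal moved the median log2 ratio of all genes only from 0.66 to 0.63. At 1.5-fold the share of all genes higher rose from 28.2% to 54.6%, which put the 3 of 6 members below it. The count was 5 of 9 (55.6%) with no floor, where *Sele* and *Madcam1* entered from signals under the floor, beside 28.2% of all genes. It was 6 of 7 (85.7%) with the hybridization controls set equal, beside 79.6%. It was 0 with a threshold of 3-fold, equal trimmed means, quantile normalization or loess, beside 6.60%, 7.99%, 6.23% and 5.47%. The count of genes 2-fold lower was 0 under every alternative run, beside 1.69% to 18.6% of all genes. The median log2 ratio of 0.78 became 0.24 with equal trimmed means, 1.55 with the hybridization controls set equal, 0.21 with quantile normalization and 0.17 with loess, which also moved the median of all genes. With a floor of 50 it was 0.52. The median of the members less that of all genes was 0.12 as reported and turned to -0.11 with a floor of 50 and to -0.09 with the hybridization controls set equal. The median was 1.04 over all 9 genes with no filter. With the floor of 50 *Selp* entered at -0.27 by 1449906_at, and with the hybridization controls set equal at 0.10 by 1420558_at. Each was its brightest probe set under that setting, and the *Selp* probe sets ran in opposite directions. Counts over all genes ran from 590 to 8671 higher and from 184 to 873 lower over the scalings. The cause of these shifts was not tested. No paired analysis was possible because each population has 1 array. What signal over background limits is the selectins and *Madcam1*, all under the floor.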
